A study of Mus musculus with 13 samples.

Results

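In mice whose brain had been made ischemic, the RNA of brains depleted of microglia was compared with that of brains that kept them. The comparison set the 2 tMCAO_MG_DE libraries against the 4 tMCAO_MG_CON libraries, 6 of the 13 libraries of the study, across every gene, and these libraries were taken by their titles. All mice were male and carried CX3CR1creER/+ with an iDTR/+ allele, so that Cre activated by tamoxifen switches on a receptor for diphtheria toxin in cells that use the Cx3cr1 gene, which are microglia but also macrophages of the brain's borders and monocytes. Every animal, controls included, received 2 doses of tamoxifen at 7 to 8 weeks of age. Starting 30 days later, the DE groups received diphtheria toxin on 3 days (50 ng per g) and the CON groups received saline. In tMCAO, transient middle cerebral artery occlusion, a filament blocked blood flow for 60 min and was then withdrawn, whereas the sham groups had no occlusion. The same depletion was made in sham mice (4 DE and 3 CON libraries), which share no library with the occluded groups. The labels give 6 to 8 weeks as the age at surgery, which conflicts with tamoxifen at 7 to 8 weeks followed by a wait of 30 days. How long after occlusion the brains were taken, and from which region, is not stated in the labels. The title of the study names microglial IL-1RA, astrocytic CXCL1 and the recruitment of neutrophils, and the comparison bears on the levels of their transcripts.

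Depth was 16239763 to 20419186 counts in the 6 libraries, over 21056 genes, and 16940 genes passed the filter on low counts. Levels are in CPM, counts relative to library depth after TMM adjustment, and changes are log2 fold changes, DE minus CON, ± SE from edgeR's quasi-likelihood test. A gene is said to have risen or fallen where edgeR's adjusted p was below 0.05. The share of mitochondrial transcripts was 8.64% and 8.28% after depletion and 9.03% to 9.86% among controls, and their part in the results was not tested. Control replicate 4 has sham surgery in its treatment entry against its title. The chemokine gene Ccl12 had 7.12 to 14.1 CPM in the 4 occluded controls, this library neither lowest nor highest, and 0.179 CPM or less in the sham controls. Nothing says that libraries came from separate animals beyond their distinct identifiers, so the p-values measure the spread between these libraries. Reads of Csf1r, Cx3cr1, P2ry12, Cd180, Il1a, Il1b, Icam1, Tnfaip2, Hspa1a and Ppp1r1b cannot be told apart from those of a gene on the other strand that their exons overlap, nor those of Itgam from Gm49368 on the same strand, so these levels carry that uncertainty.

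Microglia are the resident macrophages of the brain, kept alive by the CSF1 receptor and recognised by genes such as Tmem119 and P2ry12. After ischemia they clear debris and release cytokines. The interleukin-1 receptor antagonist (IL-1RA, from Il1rn) occupies the IL-1 receptor without signalling. CXCL1 attracts neutrophils through the receptor CXCR2, and IL-1 is a known inducer of it in astrocytes.

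Depletion changed 3155 genes (18.6%) of the occluded brain, of which 1586 rose (9.36%) and 1569 fell (9.26%). At least 2-fold changes were made by 318 rising (1.88%) and 412 falling genes (2.43%). The counts of gene list members below are to be read against the shares of 18.6% called, 9.36% rising and 9.26% falling. The median over all tested genes was -0.01, and the 2 groups did not overlap in CPM for 45.5% of all tested genes. Rises of at least 2-fold were mostly of rare transcripts: 131 of them had a mean below 0.5 CPM in the controls and 57 one of 0.5 to 1 CPM, against 7 and 37 of the falls. In the controls' range of 5 to 20 CPM this was the other way round, with 34 rises and 138 falls. Genes rarest in the controls have little room to fall, and the filter kept them mostly for their counts in another group. Their split into rises and falls was therefore partly fixed in advance. With only 2 depleted libraries, leaving out replicate 1 gave 1097 calls and leaving out replicate 2 gave 346. Without control replicate 4 there were 2373 calls, 2279 of them among the 3155. Of 208 called genes of the gene lists and the naming rule, 45 with adjusted p of at least 0.023 also lost the call when 1 control or sham library was left out, among them Adora1, Nlrp3, Gsdmd, Nfkbia, Nfkbiz, Ifit2, Cd4, Cspg4, Rgs5, Nefh, Dnaja1 and Tgfb1.

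**Figure D1:**
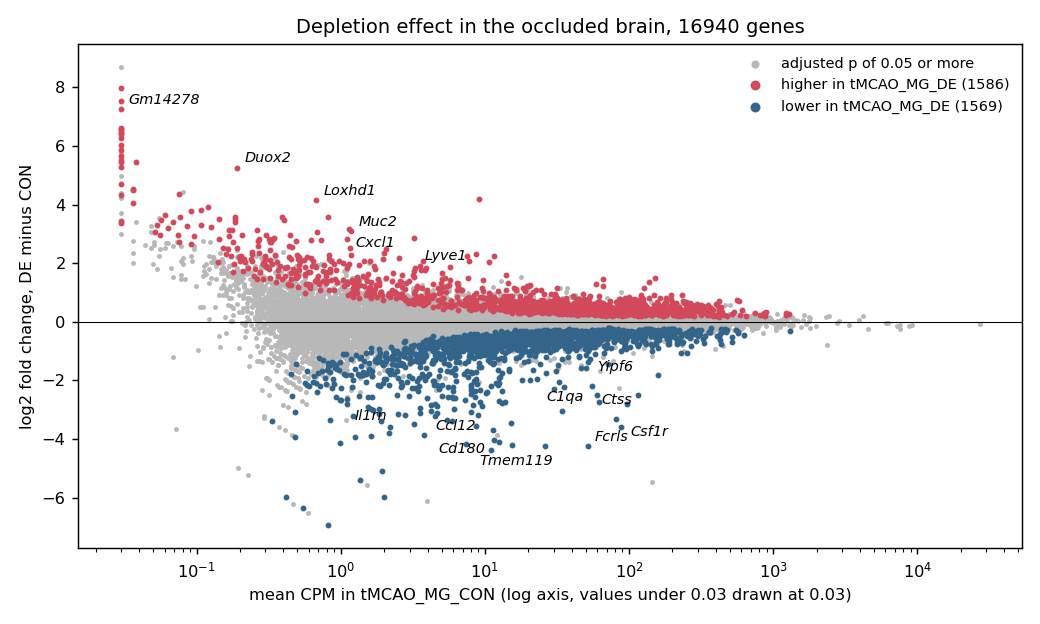
Log2 fold change of each of the 16940 tested genes (depleted minus control, vertical) against its mean CPM in the occluded controls (horizontal, log axis), with the 1586 rises in red and the 1569 falls in blue. The falls of the microglial genes Csf1r, Fcrls and Tmem119 reach below -3, and the steepest rises lie at control levels under 1 CPM.

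Transcripts of microglia fell. The summed level of 10 defining microglial markers was 342, 320, 421 and 376 CPM in the controls and 52.8 and 57.7 CPM after depletion, and all 10 fell. Of 36 homeostatic microglia genes, 32 fell and none rose, against a background of 9.26% falling, and their median log2 change was -2.45. In bulk RNA, fewer cells of a type and less RNA per cell cannot be told apart. Csf1r, which encodes the CSF1 receptor, was measured at 76.4, 86.3, 97.4 and 91.5 CPM in the controls and at 6.08 and 8.51 CPM in the depleted brains. The lowest control was far above the highest depleted library, a log2 change of -3.59 ± 0.31 (adjusted p = 5.7e-05). Tmem119, a membrane protein used to mark microglia, stood at 13.8, 13.4, 17.1 and 17.6 CPM in the controls and at 0.804 and 0.861 CPM after depletion (-4.21 ± 0.51, adjusted p = 0.00056). Fcrls, an Fc receptor-like scavenger receptor, was at 42.7 to 63.5 CPM in the controls and at 2.46 and 2.94 CPM after depletion (-4.25 ± 0.44, adjusted p = 0.00023). The groups were far apart in both genes.

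The 10 largest falls by the naming rule were Lenep, P2ry13, Fcrls, Ly86, Tmem119, Gpr34, Cd180, Bin2, Hcar2 and Ccl12. Bin2, a membrane-bending protein of blood cells, was at 10.2 CPM or more in the controls and at 0.603 and 0.810 CPM after depletion (-4.03 ± 0.51). Hcar2, the niacin receptor, was at 1.16 to 3.31 CPM in the controls and at 0.251 and 0.0506 CPM after depletion (-3.79 ± 0.73), and its call ended without depleted replicate 2. Lenep, a lens protein gene whose exons overlap Flad1 on the same strand, was at 1.55 to 2.41 CPM in the controls and had 2 counts in the depleted pair, a ratio of 0.0265 (95% interval 0.00317 to 0.0973, counting error only). Its call (adjusted p = 0.03) ended without either depleted library, and its level is uncertain because of the overlap.

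P2ry13, a receptor for ADP, changed by -4.37 ± 0.49 and Gpr34, a receptor for lysophosphatidylserine, by -4.18 ± 0.64 (adjusted p = 0.00037 and 0.0021). P2ry12, which guides microglial processes to ATP, stood at 10.6 to 14.8 CPM in the controls and at 1.61 and 2.23 CPM after depletion, a change of -2.77 ± 0.56. Adora3, an adenosine receptor that shares exons with Tmigd3, had 104 counts in the 4 controls and 1 in the depleted pair, a ratio per library size of 0.0186 (95% interval 0.000466 to 0.106, counting error only). Of 15 purinergic genes 4 fell, P2ry6 (-2.22 ± 0.39) with the 3 above, and Adora1, the adenosine receptor of neurons, rose by 0.54 ± 0.16. Cx3cr1, the fractalkine receptor and the site of the Cre insertion, had 117 counts in the controls and 1 after depletion, and missed the threshold (adjusted p = 0.12). Its depleted to control ratio was 0.0165 (95% interval 0.000414 to 0.0938). Among the sham controls Cx3cr1 was at 24.2 CPM in replicate 2 and at 1.13 and 1.19 CPM in the others. That spread enters the test, which shares it between groups, and what sets that library apart was not tested. Among the homeostatic genes Sparc (0.11 ± 0.17), Mertk (0.20 ± 0.13), Cd33 (-0.64 ± 0.26) and Cx3cr1 did not pass the test. Sall1 had the smallest fall (-0.60 ± 0.15). The calls of P2ry12, Adora1 and Sall1 ended without either depleted library, each left out on its own, whereas those of Csf1r, Tmem119, Fcrls, P2ry13, Gpr34 and Adora3 held under each of the 23 alternatives. That of P2ry6 ended without replicate 2.

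**Figure D2:**
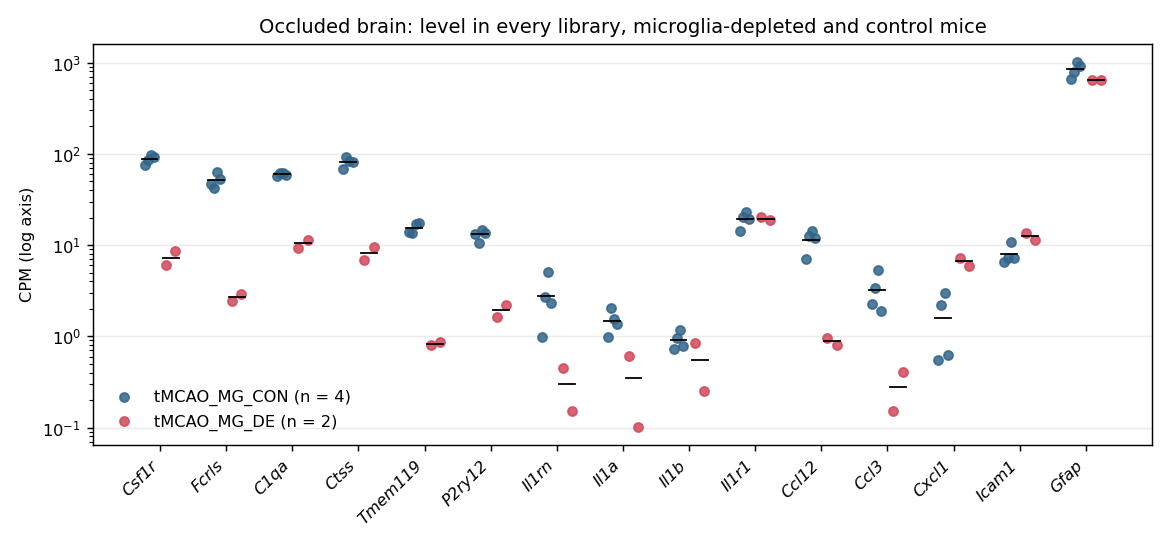
CPM (log axis) of 15 genes in each occluded library, with controls (n = 4) in blue, depleted brains (n = 2) in red and a bar at each group mean. From Csf1r to P2ry12 every depleted library lies below every control, Il1r1 overlaps, and Cxcl1 is higher in both depleted libraries.

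Genes of immune receptor signalling fell nearly as a block. Of 23 genes of the Fc receptor and TREM2 pathway, in which receptors pair with the adaptors Tyrobp and Fcer1g and signal through the kinase Syk, 22 fell, with a median of -2.09. Trem2, a lipid receptor, was at 7.62 to 13.8 CPM in the controls and at 2.01 and 1.97 CPM after depletion (-2.38 ± 0.26, adjusted p = 0.00032). Its adaptor Tyrobp changed by -2.08 ± 0.29, the exchange factor Vav1 by -3.17 ± 0.49 and the phosphatase Inpp5d by -1.37 ± 0.13. Blnk, an adaptor known from B cells, moved against the rest, at 12.1, 30.1, 21.2 and 14.6 CPM in the controls and 43.7 and 48.1 CPM after depletion (1.23 ± 0.30, adjusted p = 0.016). That rise ended without either depleted library, while Trem2, Tyrobp, Vav1 and Inpp5d kept their calls under each alternative.

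The letters GAGGAAGT, bound by PU.1, the myeloid transcription factor encoded by Spi1, were more frequent upstream of falling genes. Spi1 itself fell, from 4.75 to 7.23 CPM in the controls to 1.66 and 1.42 CPM (-2.03 ± 0.24). In the 250 bases before the gene starts (RefSeq, build GRCm38.p6, both strands), 33 of 279 genes that fell at least 2-fold held this motif (11.8%), 5 of 202 that rose at least 2-fold (2.48%) and 325 of all 12001 tested genes with a promoter entry (2.71%). Of 3 other motifs searched, GGGAATTTC of NF-kB was in 1 of the falling genes (0.358%) and 0.25% of all, GGAANNGAA in 8.24% and 7.21%, and GAAANNGAA, of interferon-regulated promoters, in 9.32% and 7.48%. The last 2 can overlap each other and GAGGAAGT. A match is a description of letters and not a measured site. The motifs were chosen with the calls known, and no other set of myeloid genes was compared. Some matches lie in close copies, such as Bcl2a1b and Bcl2a1d. Whether PU.1 has a part in the falls was not tested. Shown are 4 promoters of falling genes with 1 match each: Bcl2a1b, an anti-apoptotic BCL2 relative with close copies (chr9:89199023-89199272, plus strand), Pycard, the inflammasome adaptor (chr7:127993868-127994117, minus strand), Vav1 (chr17:57278850-57279099, plus strand) and Fcgr4, an activating Fc receptor (chr1:171018676-171018925, plus strand). Each reads 5′ to 3′ on the gene's strand up to the base before its start, with the match in capitals, as ACTTCCTC where it lies on the other strand.
Bcl2a1b: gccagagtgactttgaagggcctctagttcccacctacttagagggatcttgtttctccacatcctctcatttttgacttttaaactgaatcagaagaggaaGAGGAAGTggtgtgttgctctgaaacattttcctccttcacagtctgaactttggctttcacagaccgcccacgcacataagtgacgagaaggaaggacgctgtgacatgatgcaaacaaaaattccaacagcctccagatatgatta
Pycard: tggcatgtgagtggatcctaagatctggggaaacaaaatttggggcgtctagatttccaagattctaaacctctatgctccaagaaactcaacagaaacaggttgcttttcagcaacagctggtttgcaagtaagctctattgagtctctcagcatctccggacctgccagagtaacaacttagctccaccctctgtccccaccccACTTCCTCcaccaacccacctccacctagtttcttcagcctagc
Vav1: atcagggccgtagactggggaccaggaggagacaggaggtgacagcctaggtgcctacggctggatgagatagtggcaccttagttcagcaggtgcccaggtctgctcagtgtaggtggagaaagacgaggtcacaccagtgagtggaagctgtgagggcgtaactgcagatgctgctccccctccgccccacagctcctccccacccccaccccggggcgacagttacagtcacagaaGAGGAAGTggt
Fcgr4: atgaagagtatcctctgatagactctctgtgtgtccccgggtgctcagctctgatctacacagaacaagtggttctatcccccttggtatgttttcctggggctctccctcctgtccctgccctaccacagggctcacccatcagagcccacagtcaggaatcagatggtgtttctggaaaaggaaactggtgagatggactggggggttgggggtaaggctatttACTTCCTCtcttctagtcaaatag
The matches of Pycard, Vav1 and Fcgr4 start 44, 11 and 24 bases before the gene starts, and that of Bcl2a1b lies further upstream. Bcl2a1b changed by -3.59, Pycard by -3.21, Vav1 by -3.17 and Fcgr4 by -2.97. The call of Fcgr4 ended without either depleted library and without control replicate 3.

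Pattern recognition and complement followed. Of 16 genes of Toll-like receptor signalling 9 fell and none rose (median -1.36). Tlr1, which senses lipoproteins with Tlr2, was at 3.10 to 4.65 CPM in the controls and at 0.201 and 0.304 CPM after depletion (-3.86 ± 0.43). Cd180 and its partner Ly86, which temper TLR4 signalling, changed by -4.09 ± 0.34 and -4.23 ± 0.63. Of 19 complement genes 10 fell, among them the 3 chains of C1q at -2.19 to -2.72 and the receptors C3ar1 (-2.35 ± 0.41) and C5ar1 (-2.45 ± 0.40). The central component C3 was at 0.717 to 1.71 CPM in the controls and 3.16 and 3.39 CPM after depletion, without passing the test (3.02-fold, adjusted p = 0.056). C4b, of which astrocytes are a known source, overlapped between the groups (0.07 ± 0.27).

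Of 20 lysosomal genes 11 fell and none rose (median -0.37). Ctss, a protease of phagocytes, changed by -3.30 ± 0.48. Lamp1 and Gaa, used by all cells, changed by 0.01 ± 0.06 and 0.08 ± 0.07. Among 25 genes of the disease-associated state of microglia, 9 fell and none rose, with a median of -0.53. Spp1, the secreted matrix protein osteopontin, stood between 85.0 CPM in replicate 1 and 259 CPM in replicate 3 of the controls and at 34.7 and 54.4 CPM after depletion (-1.83 ± 0.37, adjusted p = 0.007). Lpl, lipoprotein lipase, was at 28.9 to 40.2 CPM in the controls and at 8.24 and 7.39 CPM after depletion (-2.07 ± 0.25). Apoe, the lipid carrier made chiefly by astrocytes, did not pass the test (0.23 ± 0.13, adjusted p = 0.24). The call of Spp1, which shares exons with Gm42793, ended without depleted replicate 1.

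On the IL-1 side, the antagonist and IL-1 alpha fell, and the receptor did not move beyond its spread. Il1rn was measured at 0.993, 2.69, 5.12 and 2.33 CPM in the controls and at 0.452 and 0.152 CPM after depletion. Both depleted libraries were below every control despite the wide spread of the controls, and the change was -3.17 ± 0.81 (adjusted p = 0.019). Behind these levels stand 18, 56, 87 and 48 counts in the controls and 9 and 3 in the depleted brains. Il1a was at 0.993, 2.06, 1.53 and 1.36 CPM in the controls and at 0.603 and 0.101 CPM after depletion, again without overlap (-2.06 ± 0.57, adjusted p = 0.025). Il1b, at 0.717 to 1.18 CPM in the controls and 0.854 and 0.253 CPM after depletion, overlapped (-0.70 ± 0.49, adjusted p = 0.33). Il1r1, the signalling receptor, had 14.1 to 23.1 CPM in the controls and 20.2 and 18.9 CPM after depletion (0.03 ± 0.28, adjusted p = 0.96).

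Of 20 genes of the IL-1 family and the inflammasome, 5 fell and 1 rose (median -0.47), where 9.26% of all tested genes fell and 9.36% rose. The other falls were Nlrp3, the inflammasome sensor (-1.96 ± 0.62), Pycard, its adaptor (-3.21 ± 0.38), and Gsdmd, which forms the exit pore (-1.41 ± 0.46). Irak2, a kinase below the IL-1 receptor, was at 7.42 to 15.2 CPM in the controls and at 21.0 and 20.1 CPM after depletion (0.92 ± 0.23, adjusted p = 0.016). The calls of Il1rn, Nlrp3, Gsdmd and Irak2 ended without either depleted library. That of Il1a ended without replicate 2 and also in a fit with replicate number as a block. Pycard kept its call under each alternative.

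Cxcl1 rose. It was measured at 0.552, 2.21, 3.00 and 0.631 CPM in the occluded controls and at 7.28 and 5.97 CPM in the depleted brains, which rests on 10 to 51 counts in each control and at least 118 in each depleted library. Both depleted libraries stood above every control, a 4.17-fold rise (2.06 ± 0.51, adjusted p = 0.016). The call ended without either depleted library, with adjusted p up to 0.096. The sham controls held 0.215 CPM or less and the sham depleted brains 1.78 to 3.41 CPM, and it rose there too (4.51 ± 0.76, adjusted p = 0.0057). The 2 depletion effects were not shown to differ (adjusted p = 0.47). The promoter of Cxcl1 (chr5:90890995-90891244, plus strand) is shown because its match to GGGAATTTC, in capitals and on the gene's strand, starts 71 bases before the gene start. NF-kB is a factor of inflammatory signalling, and the motif stood in 30 of the 12001 genes (0.25%) and in 1 of the 202 that rose at least 2-fold (0.495%), Cxcl1 itself.
Cxcl1: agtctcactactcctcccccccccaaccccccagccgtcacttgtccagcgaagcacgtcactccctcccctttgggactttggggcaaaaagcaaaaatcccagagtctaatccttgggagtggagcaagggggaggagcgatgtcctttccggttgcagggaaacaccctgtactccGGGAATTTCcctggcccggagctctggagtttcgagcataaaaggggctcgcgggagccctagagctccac

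Other ligands of CXCR2 and the neutrophil genes gave few counts. Cxcl2, a close relative of Cxcl1, was at 0.0552, 0.623, 1.41 and 0.097 CPM in the controls and at 1.61 and 1.06 CPM after depletion, with overlap (1.31 ± 0.76, adjusted p = 0.24). Cxcr2 itself had 0, 2, 9 and 0 counts in the controls and 17 and 3 after depletion (adjusted p = 0.32). Mpo, the peroxidase of neutrophil granules, had 4, 0, 0 and 0 counts against 11 and 16 (adjusted p = 0.11). Ly6g, the usual surface marker of mouse neutrophils, was not tested, with 0 counts in all 4 controls and 5 and 3 in the depleted brains. Mmp8, a neutrophil collagenase, had 1 count in the controls and 32 and 2 after depletion. Other untested members of the list went either way. Cd177 had 1, 2, 0 and 0 counts in the controls against 15 and 0 after depletion. Trem1 had 1, 10, 16 and 0 against 0 and 1, Fpr1 0, 3, 8 and 1 against 2 and 0. Elane had 0, 2, 0 and 0 against 0 and 0. Of 15 tested neutrophil list genes none rose and 2 fell, Csf3r (-2.60 ± 0.55) and Itgam (-1.67 ± 0.32). Both of these are also expressed by microglia and lost their call without depleted replicate 2. The median over the 15 was 0.81, with 12 positive and 3 negative changes. Nearest to the threshold among the positive ones was Retnlg (4.44 ± 1.58, adjusted p = 0.066). Its mean was 0.0801 CPM in the controls and 1.84 CPM after depletion. The summed level of 10 defining neutrophil markers was 1.26 to 3.94 CPM in the controls and 15.2 and 3.65 CPM after depletion. Depleted replicate 1 thus stood apart from the occluded controls and replicate 2 did not. The sum spanned 1.29 to 34.9 CPM in the sham controls and 1.89 to 35.9 CPM in the sham depleted brains. A level of 15.2 CPM lies within these sham ranges, but each range may rest on 1 library. Summed over 20 genes of the neutrophil list, sham control replicate 2 was at 75.6 CPM against 37.3 and 40.7 CPM in the others. Sham depleted replicate 3 was at 57.4 CPM in that sum, against 14.7 to 18.3 CPM in the others. What sets these libraries apart was not tested. Icam1, to which neutrophils adhere, was at 6.51, 7.29, 10.8 and 7.18 CPM in the controls and at 13.6 and 11.5 CPM after depletion, and did not pass the test (0.66 ± 0.31, adjusted p = 0.15).

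Among CC chemokines the changes went both ways, as over all tested genes (9.36% rising, 9.26% falling). Of 15 genes 3 fell, among them Ccl12, a monocyte attractant (-3.69 ± 0.51), and Ccl3 (-3.50 ± 0.62), and 1 rose, Ccl17 (4.30-fold, adjusted p = 0.011). Ccl12 stood at 7.12 to 14.1 CPM in the controls, lowest in replicate 1, and at 0.954 and 0.810 CPM after depletion. Ccl17, a ligand of CCR4, stood at 0.497, 0.623, 0.765 and 0.340 CPM in the controls and at 2.21 and 2.58 CPM after depletion. Ccl2, the main monocyte attractant, overlapped (0.39 ± 0.46, adjusted p = 0.59). Cxcl16 fell (-2.36 ± 0.49), and Cxcl10 did not pass the test (-0.72 ± 0.56). Ccl12 and Ccl3 kept their calls under each alternative, that of Ccl17 ended without depleted replicate 2 and that of Cxcl16 without either.

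Of 22 genes of cytokines and NF-kB feedback 3 rose and 1 fell, with a median of 0.18, a share of calls close to the 18.6% of all tested genes. Tnfaip2, induced by TNF, was at 0.534 to 1.29 CPM in the controls and at 4.87 and 3.19 CPM after depletion (2.27 ± 0.40, adjusted p = 0.0037), and held under each alternative. Nfkbia and Nfkbiz, which encode regulators of NF-kB, each changed by 0.58 ± 0.18, and both calls ended without either depleted library. The fall was of Csf2rb, the shared receptor chain for GM-CSF and IL-3 (-1.80 ± 0.41), likewise lost without either. Tnf was at 0.534 to 1.44 CPM in the controls and at 0.201 and 0.253 CPM after depletion, and missed the threshold (-1.83 ± 0.70, adjusted p = 0.085). None of 17 genes of IL-6 and STAT3 signalling was called, and of 26 interferon-induced genes only Ifit2 (-0.52 ± 0.16) and Mx1 (-2.21 ± 0.58) fell, and both calls ended without either depleted library. In the interferon list control replicate 3 stood highest, with a summed 480 CPM against 253 to 299 CPM in the other controls.

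Macrophages of the brain's borders line vessels and meninges. Of 13 tested genes that mark them 4 rose (background 9.36%) and none fell, with a median of 0.54. Lyve1, a hyaluronan receptor, was at 1.88, 4.65, 2.59 and 3.73 CPM in the controls and at 10.1 and 11.7 CPM after depletion (1.75 ± 0.34, adjusted p = 0.0059). F13a1, a clotting factor subunit, rose by 1.31 ± 0.24, Cd163, the hemoglobin scavenger receptor, by 1.26 ± 0.34, and Siglec1, a sialic acid receptor, by 1.82 ± 0.41. All 4 calls ended without depleted replicate 2, with adjusted p up to 0.26. Mrc1, the mannose receptor, overlapped (0.69 ± 0.30, adjusted p = 0.12). The summed level of 8 border macrophage markers was 38.2 to 61.1 CPM in the controls and 55.8 and 72.8 CPM after depletion, with overlap.

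Of 21 monocyte and macrophage genes 9 fell and 1 rose (median -0.62). The falls were led by the Fc receptors Fcgr1 (-2.83 ± 0.37) and Fcgr3 (-1.94 ± 0.25), also expressed by microglia. Arg1, arginase of repair-type macrophages, was at 0.166, 0.144, 0.412 and 0.097 CPM in the controls and at 0.703 and 2.53 CPM after depletion (2.98 ± 0.68, adjusted p = 0.011), and its call ended without depleted replicate 2 (0.27). Ccr2, the receptor of infiltrating monocytes, was at 0, 0.192, 1.76 and 0 CPM in the controls and 0.552 and 0.405 CPM after depletion (0.04 ± 1.20). Of 5 tested lymphocyte genes Cd4 rose (0.99 ± 0.31) and Trbc2 fell (-0.98 ± 0.23), and the T cell genes Cd3d and Cd8a had at most 3 counts in any occluded library. Both calls ended without depleted replicate 2.

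Genes of reactive astrocytes passed the test no more often than the 18.6% of all tested genes. Of 13 genes of the pan-reactive state only Steap4, a metalloreductase, rose, from 1.99 to 4.65 CPM in the controls to 12.6 and 10.9 CPM (1.84 ± 0.36, adjusted p = 0.0061). Gfap, whose filament protein marks astrocytes, stood at 667, 790, 1010 and 924 CPM in the controls and at 646 and 648 CPM after depletion. Both depleted libraries were just below the lowest control, without passing the test (-0.39 ± 0.20, adjusted p = 0.19). Of 11 tested A1 genes Fkbp5, a glucocorticoid-induced chaperone, rose (1.45 ± 0.36) and Ggta1 fell (-0.87 ± 0.21). Of 12 A2 genes Sphk1, sphingosine kinase, rose (1.17 ± 0.24) and Cd14 fell (-2.17 ± 0.54). In the homeostatic group of 16, the share of calls was close to that of all tested genes. The water channel Aqp4 fell (-0.75 ± 0.16), the bicarbonate transporter Slc4a4 fell (-0.34 ± 0.10) and Glul, glutamine synthetase, rose (0.26 ± 0.07). Slc1a2, the main glutamate transporter, was at 511 CPM in depleted replicate 1 and at 2210 CPM in replicate 2, against 2200 to 2580 CPM in the controls, so the depleted pair disagreed. The summed level of 6 astrocyte markers, Slc1a2 among them, was 1920 and 3580 CPM against 3620 to 4410 CPM. The calls of Fkbp5, Ggta1, Sphk1, Cd14, Aqp4, Slc4a4 and Glul ended without either depleted library and that of Steap4 without replicate 2.

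Gpr17, a receptor of committed oligodendrocyte progenitors whose exons overlap Lims2 on the other strand, was at 33.1, 26.2, 31.8 and 38.1 CPM in the controls and at 10.8 and 12.1 CPM after depletion (-1.49 ± 0.14, adjusted p = 0.00014). The lineage transcription factors Olig1 (-0.58 ± 0.11) and Olig2 (-0.56 ± 0.13) and the proteoglycan Cspg4 (-0.39 ± 0.12) also fell, so that of 12 progenitor genes 4 fell and none rose. Pdgfra, the growth factor receptor of progenitors, changed by -0.06 ± 0.10. The share of falls over all tested genes was 9.26%. Of 14 myelin genes 3 fell, Ugt8a, which makes galactolipids (-0.83 ± 0.20), Ermn (-0.84 ± 0.18) and Aspa (-1.14 ± 0.29), while Mbp, a structural gene of myelin, did not pass (-0.21 ± 0.15). Gpr17 held under each alternative, whereas the calls of Olig1, Cspg4, Ugt8a, Ermn and Aspa ended without either depleted library and that of Olig2 without replicate 2.

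Of 17 mural and fibroblast genes 4 fell and none rose, with a median of -0.61: Acta2, smooth muscle actin (-1.33 ± 0.30), Tagln (-1.21 ± 0.33), the pericyte regulator Rgs5 (-0.52 ± 0.16) and the collagen Col1a1 (-1.61 ± 0.42). Acta2 stood at 14.9, 22.9, 19.7 and 22.4 CPM in the controls and at a mean of 7.98 ± 2.90 CPM (SD, n = 2) after depletion, without overlap. Each of these calls ended without depleted replicate 1. Of 12 endothelial activation genes the angiopoietin receptor Tek fell (-1.14 ± 0.26). Of 14 barrier genes the glucose transporter Slc2a1 rose (0.62 ± 0.15), while Cldn5, the main tight junction claudin, did not pass (0.37 ± 0.14, adjusted p = 0.072). The calls of Tek and Slc2a1 ended without either depleted library. With 9.36% of all tested genes rising and 9.26% falling, the endothelial and barrier counts were near these shares.

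Of 14 neuronal genes 4 fell and 1 rose, where 9.26% of all tested genes fell and 9.36% rose. The neurofilaments Nefl (-0.77 ± 0.17), Nefm (-0.63 ± 0.14) and Nefh (-0.35 ± 0.11) fell, as did Slc17a6, a vesicular glutamate transporter (-0.88 ± 0.23), and none of these calls held without depleted replicate 2. Rbfox3, which encodes NeuN, rose from 342, 334, 289 and 339 CPM in the controls to 461 and 484 CPM (0.54 ± 0.08, adjusted p = 0.0019), under each alternative. Ppp1r1b, the dopamine-regulated DARPP-32, was at a mean of 138 ± 19.3 CPM (SD, n = 4) in the controls and at 372 and 338 CPM after depletion (1.36 ± 0.27, adjusted p = 0.0059), and its call ended without replicate 2. Of 14 striatal genes 2 rose, Ppp1r1b and Pdyn, a precursor of opioid peptides (0.54 ± 0.11, lost without either depleted library), while the receptor genes Drd1 and Adora2a changed by -0.19 ± 0.22 and -0.45 ± 0.40. Snap25, a synaptic protein, changed by -0.05 ± 0.07. None of 18 activity-regulated genes was called, Fos included (0.58 ± 0.36, adjusted p = 0.28).

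Of 13 heat shock genes 3 rose, Hspa1a, Hspa1b and Dnaja1, at 0.70 ± 0.15, 0.75 ± 0.21 and 0.30 ± 0.10, and none fell. Hspa1a and Hspa1b are near-identical copies and cannot be counted apart with certainty. Of 14 p53 targets 3 rose and 2 fell. Cdkn1a, a cell cycle inhibitor, rose from 49.1 to 73.2 CPM in the controls to 131 and 157 CPM (1.30 ± 0.30), while Ccng1, another target, fell (-0.75 ± 0.15). Of 16 injury transcription factors 3 rose and none fell. As 9.36% of all tested genes rose and 9.26% fell, the heat shock, p53 and injury lists exceeded these shares by few genes. Atf4, Maff and Gadd45b changed by 0.73 ± 0.18, 1.01 ± 0.17 and 1.16 ± 0.37. Of 18 cholesterol genes 5 biosynthetic ones fell, among them Sqle (-0.86 ± 0.23), Hmgcs1, Fdps and Sc5d, and 3 rose, the synthase Lss and the exporters Abca1 (0.44 ± 0.14) and Abcg1 (0.50 ± 0.11). Of 20 growth factor genes 6 fell, among them Igfbp5 (-1.06 ± 0.18), the CSF1 receptor ligand Il34 (-0.75 ± 0.20) and Tgfb1 (-0.62 ± 0.20). Of the genes named in this paragraph only Igfbp5 kept its call under each alternative. Most abundant among all called genes were Glul, Ncdn (0.29 ± 0.08), Cyfip2 (0.24 ± 0.07), Eef1a1, an elongation factor (-0.31 ± 0.07), and Ppp1r9b (0.34 ± 0.09).

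**Figure D3:**
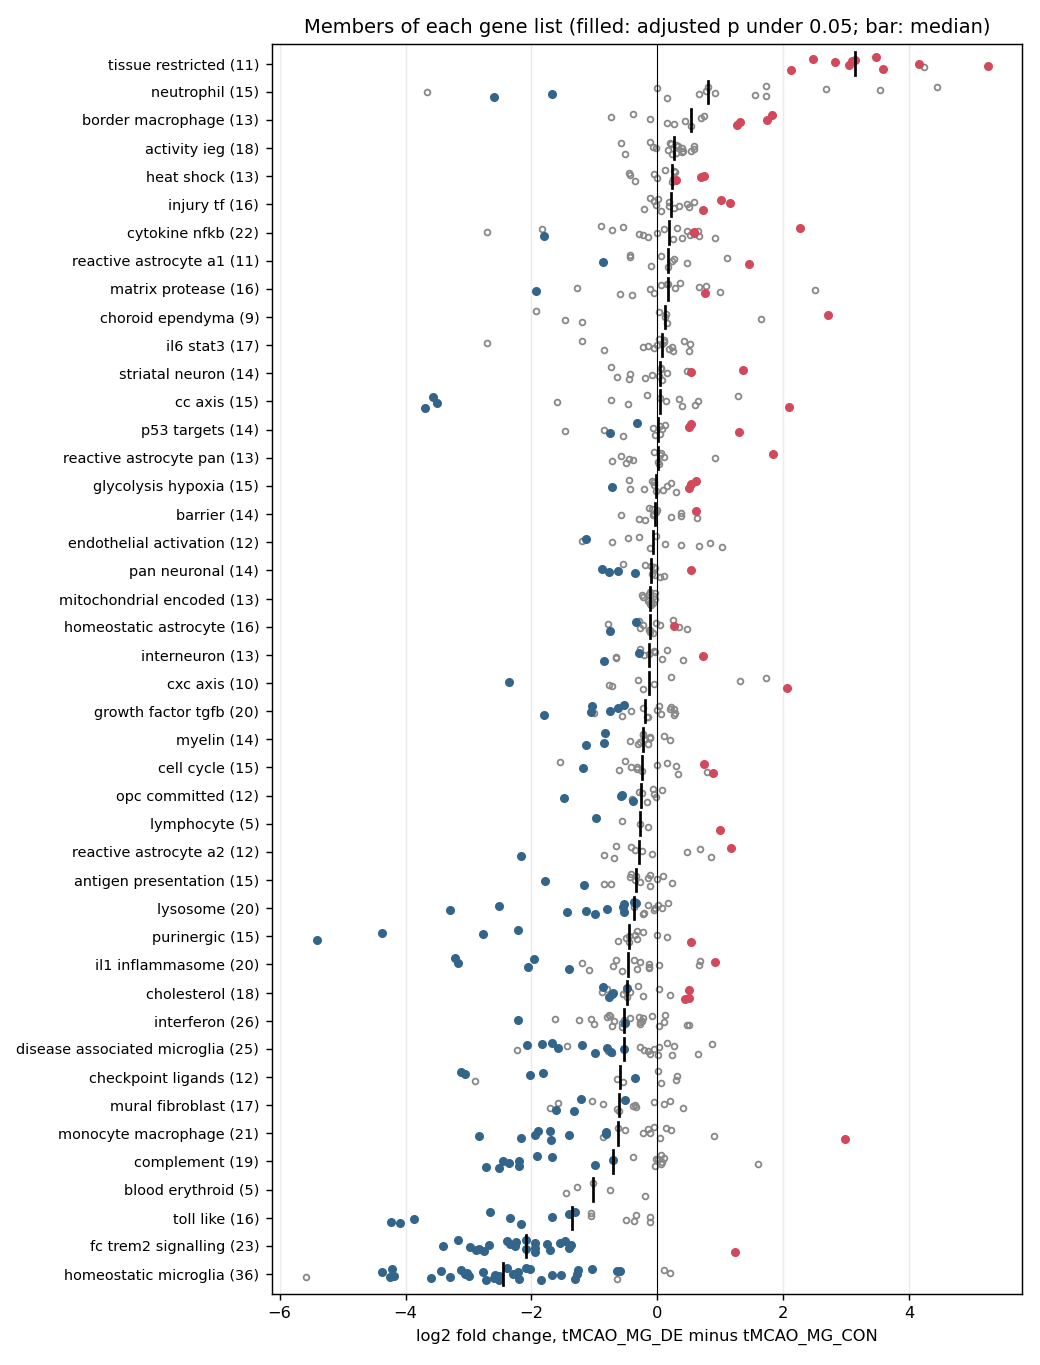
Log2 fold change (depleted minus control, occluded brain) of every tested member of 44 gene lists, the number tested in parentheses, with filled points for members that passed the test and a bar at each list's median. The homeostatic microglia and Fc receptor lists lie lowest, at medians of -2.45 and -2.09, and the tissue-restricted list highest, at 3.14.

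Several of the steepest rises belonged to genes whose known sites of expression are other organs. The 10 largest by the naming rule were Gm14278, Duox2, Loxhd1, Igfbp1, Cyp3a57, Cfap53, Gm11738, Psca, Tmprss9 and Cym. Duox2, an oxidase of thyroid and gut, was at 0.276, 0.192, 0.0588 and 0.243 CPM in the controls and at 7.83 and 7.65 CPM after depletion (5.26 ± 1.06, adjusted p = 0.0071). Loxhd1, a protein of inner ear hair cells, was at 0.534 to 0.959 CPM in the controls and at 13.1 and 11.2 CPM after depletion (4.16 ± 0.62). Igfbp1, a liver-derived binding protein, was at 0.0485 to 0.166 CPM against 1.66 and 2.08 CPM (3.91 ± 0.67), and Cym, the milk-clotting protease, at 0 to 0.240 CPM against 1.46 and 1.06 CPM (3.22 ± 0.77). The pseudogene Gm14278 (GRCm38, chromosome 2, 156888854 to 156915383, minus strand) had 1 count in the 4 controls and 119 in the depleted pair, a ratio of 230 (95% interval 40.5 to 9150). In the sham libraries it was at 0.057 CPM or less in both groups. Gm14278 thus passed the filter on low counts through the depleted pair alone, so the direction of its change was fixed in advance. Gm14278 and Loxhd1 kept their calls under each alternative, whereas those of Duox2, Igfbp1, Cyp3a57, Cfap53, Gm11738, Psca and Tmprss9 ended without depleted replicate 2 and that of Cym without either.

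Of 11 tissue-restricted genes, a list drawn up with earlier results of these libraries known and so no independent evidence of direction, 10 rose. Ctrb1, a pancreatic protease precursor, was at 0.0959 CPM or less in the controls and 0.301 and 0.911 CPM after depletion (adjusted p = 0.082). Their summed level was 6.01, 7.00, 8.53 and 6.11 CPM in the occluded controls and 64.6 and 64.3 CPM in the depleted brains. Among the sham libraries it was 1.61 to 2.82 CPM in the controls and 120, 80.7 and 68.5 CPM in 3 depleted brains, but 8.76 CPM in the library labelled sham_MG_DE_1. That library had lost its microglial transcripts like the others, with 377 CPM for the summed homeostatic list against 369 to 481 CPM. It stood below the other sham depleted libraries in 263 of the 318 genes that rose at least 2-fold in the occluded brain (82.7%), in 53 of the 412 that fell (12.9%) and in 31.4% of all tested genes. What sets this library apart was not tested.

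**Figure D4:**
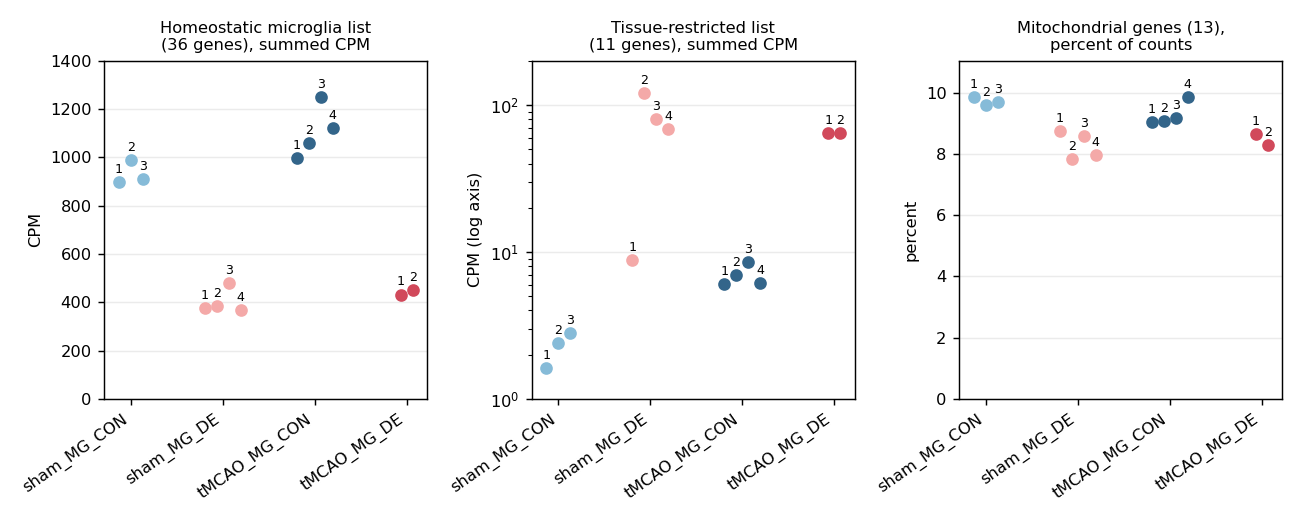
For each of the 13 libraries, numbered by replicate within its group, the summed CPM of the 36 homeostatic microglia genes, the summed CPM of the 11 tissue-restricted genes (log axis) and the percent of counts from 13 mitochondrial genes. Depleted libraries are low in the first panel, and in the second all but sham_MG_DE_1, at 8.76 CPM, are high.

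Depletion in the occluded and in the sham brain could be compared without shared libraries. In the sham brain 1921 genes were called (11.3%), of which 6.85% of all tested genes rose and 4.49% fell, and 1037 genes were called in both, 32.9% of the occluded and 54.0% of the sham calls. Of these, 605 rose in both and 422 fell in both. The sham count, and with it these shares, rests on single libraries: it was 591 without sham control replicate 3 and 3725 without sham_MG_DE_1, and 611 to 1104 without 1 of the other sham libraries. The log2 changes correlated at r = 0.631 (rho = 0.591) over the 16940 genes, which are not independent replicates. The remaining 10 went in opposite directions: Ccl12, Fkbp1a, Lgals3, Lilr4b, Lilrb4a, Ms4a6c, Msr1, Otud5, Tlr2 and Tmem127. Fkbp1a, the immunophilin FKBP12, stood at 103 to 131 CPM in the occluded controls and at 232 and 229 CPM after depletion, a rise against its fall in the sham brain (0.93 ± 0.21 and -0.86 ± 0.19). Tmem127 was at 14.7 CPM in occluded control replicate 1 and at 117 to 135 CPM in the other 3, against 14.7 and 12.9 CPM after depletion, so its groups met at the lowest control.

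The difference between both depletion effects passed the test in 8 genes (0.0472%), 7 of them with the lower value in the occluded brain (0.0413%), with 1647 genes at an unadjusted p below 0.05. The largest by its test was Yipf6, a protein of the Golgi membrane. It stood at 49.1, 50.4, 50.7 and 51.3 CPM in the occluded controls and at 18.3 and 15.7 CPM after depletion, a change of -1.57 ± 0.09. In the sham brain it stood at 43.9 to 44.6 CPM in the controls and at 38.8 to 45.5 CPM after depletion, so the fall was seen in the occluded pair alone (difference -1.51, adjusted p = 0.00014). This difference was called under each alternative. Ccl12 had 0.179 CPM or less in the sham controls and 0.171 to 1.24 CPM in the sham depleted brains, where it rose (2.96 ± 0.83), against its fall in the occluded brain. The inhibitory receptors Lilrb4a and Lilr4b followed the same course, at -1.32 ± 0.30 and -2.23 ± 0.45 in the occluded and 2.76 ± 0.42 and 4.17 ± 0.78 in the sham brain. These neighbours on chromosome 10 are close copies and share exons with Gm49339, so their counts are uncertain.

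Lpl stood at 9.45 to 15.1 CPM in the sham controls, 10.3 to 16.7 CPM in the sham depleted brains and 28.9 to 40.2 CPM in the occluded controls. After depletion in the occluded brain it was at 8.24 and 7.39 CPM, so its fall there (-2.07) had no counterpart in the sham brain (0.11 ± 0.20). Cd180 and Tlr13, a receptor for bacterial RNA, fell in both settings, by -1.03 ± 0.28 and -0.70 ± 0.17 in the sham brain and by -4.09 ± 0.34 and -2.34 ± 0.19 in the occluded brain. Lingo3, a membrane protein of neurons, was at 23.5, 22.8, 25.1 and 26.6 CPM in the occluded controls and at 52.2 and 53.1 CPM after depletion (1.10 ± 0.09), with a smaller rise in the sham brain (0.30 ± 0.08). Apart from Yipf6, each of these 7 differences lost its call when 1 or another library was left out, with adjusted p up to 0.18. The IL-1 and CXCL1 genes were not among the 8, with adjusted p for the difference of 0.51 for Il1rn, 0.66 for Il1a and 0.25 for Icam1. These values do not show that the effects were alike. Il1rn was at 0.305 CPM or less in every sham library, so a fall there could hardly be seen. In the sham brain Il1a fell (-3.37 ± 0.68, adjusted p = 0.011) and Icam1 rose (2.39 ± 0.32, adjusted p = 0.0013).

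**Figure D5:**
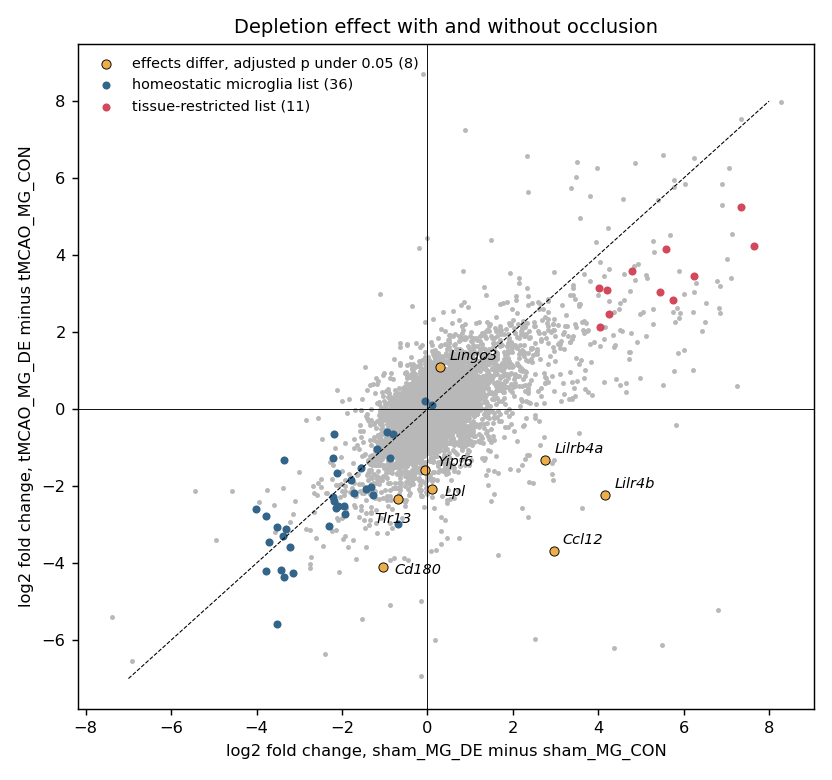
Log2 fold change after depletion in the occluded brain (vertical) against that in the sham brain (horizontal) for 16940 genes, with the 8 genes whose effects differed in orange, homeostatic microglia genes in blue, tissue-restricted genes in red and the line of equal change dashed. Ccl12, Lilrb4a and Lilr4b lie in the lower right, higher after depletion in the sham brain and lower in the occluded brain.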

How the data were processed

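Paired-end TruSeq libraries of total brain RNA were read from tables of the authors, 1 per group. Counts were deposited by the authors as whole numbers per gene, not normalised, per the file headers. FPKM values, scaled by gene length and library size, were deposited by the authors beside them. Tools named per the submitters' processing notes are Cufflinks, version 2.1.1, and Cuffdiff, and the build named is mm10. Aligner, annotation and use of strand in counting are not stated in the labels, so reads of overlapping genes may be shared.

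Of 21056 genes in all tables, filterByExpr kept 16940 and removed 4116. Entries of the same symbol were summed (26 in the occluded tables), and 24 names turned into dates were left out. Genes in the occluded tables alone (1052) entered only an alternative fit. Counts were scaled by TMM and fitted with edgeR 4.0.16 (R 4.3.3) as 4 group means over the 13 libraries, so that the spread is shared (biological coefficient of variation 15.2%, prior degrees of freedom 4.17). Tests were two-sided quasi-likelihood tests with Benjamini-Hochberg adjustment over all tested genes and a threshold of 0.05. SE was approximated as the absolute log2 change over the root of F. With 3 or fewer counts in a group the ratio has an exact 95% interval, for counting error only. The pipeline was tested on simulated data.

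Named genes were the study's axis, the 10 largest rises and falls with non-overlapping groups and at least 1 FPKM as mean of the higher group, up to 4 members per list, the 5 most abundant called genes and the genes whose effects differed. Other genes were named after their values were seen, and some genes of the lists are not reported here. The members and lists were chosen with earlier results of these data known, the motifs with the calls known. Alternatives were DESeq2 1.42.0, limma 3.58.1 on log2(FPKM + 0.1) and log2(FPKM + 1), other filters and scaling, a replicate block, fits of 6 libraries and leaving out libraries. Control replicate 4 was grouped by title, and the locus numbers of the iDTR allele, which differ between labels, were read as 1 genotype. Libraries correlated at r = 0.983 to 0.987 within and 0.962 to 0.972 between the occluded groups, and the depleted pair differed beyond sampling noise (chi-square per gene 14.2). Coordinates outside promoters are from GENCODE on GRCm38.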

Additional observations from a re-analysis of the deposited data

Results flagged for a closer look

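Among the 4 occluded controls a single library stood far from the other 3 in 8 of the genes checked, 5.16% of them, close to the about 1 in 20 groups in which chance alone does this. Mpo was at 0.221 CPM in replicate 1 and at 0 in the others, and Gm14278 at 0.0552 CPM in replicate 1, a single count. Cxcl16 was at 5.59 CPM in replicate 3 against 2.81 CPM or less, and Il34 at 52.9 CPM in replicate 3 against 36.9 CPM or less. Rbfox3 was lowest in replicate 3, at 289 CPM against at least 334. Olig2 was at 22.6 CPM in replicate 1 against 20.9 CPM or less, Pfkfb3 at 31.2 CPM in replicate 2 against at least 43.1, and Gucy2c at 1.25 CPM in replicate 2 against 0.534 CPM or less.

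The depletion effect differed between the occluded and the sham brain in 8 genes by edgeR's test of the difference, given here on the log2 scale as occluded minus sham. It was -1.51 for Yipf6, -4.08 for Lilrb4a, -3.06 for Cd180, -6.65 for Ccl12, -6.41 for Lilr4b, -2.18 for Lpl, -1.64 for Tlr13 and 0.80 for Lingo3. The sham controls of Ccl12 and Lilr4b were close to 0, so the size of their difference depends on few counts.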

How the results depend on the processing

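Among the 208 called genes of the lists and the naming rule, none turned sign under an alternative. Of them, 55 were called under each of the 23 alternatives. The depleted pair limits the rest: 99 calls ended without either of its libraries, 5 more without replicate 1 alone and 49 more without replicate 2 alone, when the lone library is assumed to vary like the other groups. Leaving out 1 library at a time gave 346 to 3873 calls, 156 to 1967 rises and 190 to 1906 falls in the occluded brain, 591 to 3725 calls in the sham brain and 1 to 15 differences between both effects. Without control replicates 1 and 4 together, chosen after seeing the data for their low cytokine levels, 1741 calls were left, 771 rises and 970 falls, and 1592 of them were among the 3155. The difference between both effects was called in 111 genes by DESeq2 and in 23 and 32 genes by limma with pseudocounts of 0.1 and 1. The limma fits also moved the split of occluded calls, to 1242 rises and 1846 falls (40.2% higher) and to 1292 and 1815 (41.6%), against 50.3% higher. The cause was not tested.

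Replicate numbers were not used to pair these libraries. Deviations from the group means correlated at 0.036 for replicates 1 and 0.0321 for replicates 2. With only 2 depleted libraries their deviations mirror each other, so these values cannot show that no pairing exists. With a replicate block 2324 genes were called in the occluded brain (1179 rises and 1145 falls), 823 in the sham brain and 2 for the difference, and 32 of the 208 calls ended, those of Il1a and Fcgr4 among them. A fit of the 6 occluded libraries with all genes of their tables added Fga, a fibrinogen chain (2.96, adjusted p = 0.023), and Gm15698 (5.14, adjusted p = 0.0067). At this depth genes such as Ly6g and Cxcr2 rest on fewer than 20 counts in any library.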
